A study of Mus musculus with 12 samples.

Results

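Insulin-like growth factor 1 (IGF1), its receptor, its 7 binding proteins and the acid-labile subunit were examined in mice with and without the bile salt export pump ABCB11. The genes were Igf1, Igf1r, Igfals and Igfbp1 to Igfbp7, taken by name and not by their values. Earlier results of these data were known when the genes were chosen. Of these 10 genes, 9 had a probe set named for them alone, 20 probe sets in all, out of 17097 genes on the arrays. Igfbp7 was not analysed here. Where a gene had several probe sets, the one with the highest mean over the 6 arrays of a tissue stood for it in that tissue. The rule kept different probe sets of Igf1 and of Igf1r in the liver and in the lung.

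The 12 arrays came from 2 tissues, 6 from each. The liver arrays came from female C57BL/6 mice aged 1.5 months, 3 Abcb11-/- and 3 wild-type (WT), where Abcb11-/- mice carry a germline null allele and retain bile salts in the liver. The lung arrays came from offspring at embryonic days 17.5 and 18.5 (E17.5, E18.5) and at postnatal day 0 (PN0), with 1 array for an Abcb11-/- mother and 1 for a WT mother at each stage. All these offspring were Abcb11+/-, from an Abcb11-/- female and a WT male or from the reciprocal cross, so the father and the parent that passed on the null allele differed along with the mother. A legend gives 3 animals per group at E18.5 and PN0, and how many of them each lung array stands for is not stated. Values are log2 signals, and the 2 tissues appear to have been normalized separately, so no level was set against one from the other tissue. Levels of different genes were not compared either, since probes differ in brightness.

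IGF1 is a peptide growth factor that acts through a tyrosine kinase receptor at the cell surface, the product of Igf1r. Most IGF1 in the blood is made by hepatocytes under growth hormone, and there it is carried in a complex with a binding protein and the acid-labile subunit. In the developing lung IGF1 is made mainly by mesenchymal cells and acts locally on growth and septation. The binding proteins hold IGFs away from the receptor or deliver them to it, and proteases release the ligand again.

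The liver arrays followed their labels. Abcb11 itself had log2 values of 2.90, 3.14 and 3.26 in Abcb11-/- livers, against 11.22, 11.04 and 10.88 in WT livers. In limma, 4.33% of all genes were higher and 2.91% lower in Abcb11-/- livers at a Benjamini-Hochberg adjusted p under 0.05. Of 10 measured hepatocyte markers none was called. The log2 of their summed signal was 16.35 to 16.40 in Abcb11-/- livers and 16.36 to 16.43 in WT livers. Much of that sum comes from genes near the top of the scale, such as Alb (13.81 to 13.84 in Abcb11-/- livers and 13.80 to 13.84 in WT livers, where the brightest values of the arrays were 13.84 to 14.16), so it may not show a difference. Of 5 cholangiocyte markers 2 were higher, Epcam among them. The log2 of their summed signal was 6.00 to 6.32 in Abcb11-/- livers and 5.52 to 5.75 in WT livers. These markers were dim, with a mean log2 value of 3.55 to 3.85 in Abcb11-/- livers and 3.15 to 3.34 in WT livers. The medians of the liver arrays were 3.15 to 3.18. Of 11 stellate cell and fibroblast markers 1 was lower, Reln, with 8.18, 7.71 and 7.85 in Abcb11-/- livers, against 8.80, 8.75 and 8.87 in WT livers (adjusted p = 0.0080 from limma). The log2 of the summed signal of these 11 overlapped, at 11.85 to 12.42 in Abcb11-/- livers and 11.94 to 12.13 in WT livers. Abcb11-/- replicate 2 lay nearer to the WT livers, at a root mean square difference of 0.48 to 0.49 from each, than replicates 1 and 3 did (0.53 to 0.56, over the 6375 genes whose mean log2 value reached 6). The fetal hepatocyte gene Afp had 7.67, 4.87 and 7.41 in Abcb11-/- livers, against 4.45, 4.85 and 5.44 in WT livers.

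In the liver, Igfbp4 was the only gene of the 9 to pass the test. It was lower in Abcb11-/- livers. The median log2 fold change of the 9 genes was -0.11, against 0.00 over all 17097 genes. No member was called higher (0 at an unadjusted p under 0.05 as well) and 1 was called lower (2 at an unadjusted p under 0.05, as 21.6% of all genes had in either direction), where 2.91% of all genes were called lower. One call among 9 genes does not set them apart from that share. The groups did not overlap for Igfbp4 alone, beside 12.1% of all genes without overlap and lower and 13.8% without overlap and higher.

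Igfbp4 encodes a binding protein that mostly withholds IGFs from the receptor until the protease PAPP-A cleaves it. Its log2 values were 11.78, 11.89 and 11.63 in Abcb11-/- livers, against 12.28, 12.23 and 12.15 in WT livers. Every Abcb11-/- value lay below every WT value. The log2 fold change was -0.45 (standard error 0.10, 95% interval -0.68 to -0.22, adjusted p = 0.034 from limma), a level 1.37-fold lower. The call was lost when any array other than Abcb11-/- replicate 2 was left out (adjusted p = 0.058 to 0.13 from limma). The stellate cell marker Reln was lower as well, and its part in the Igfbp4 values was not tested. It was the only 1 called of 11 stellate cell and fibroblast markers, whose median log2 fold change was 0.14. In bulk tissue, fewer cells of a type and less RNA per cell cannot be told apart.

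**Figure D1:**
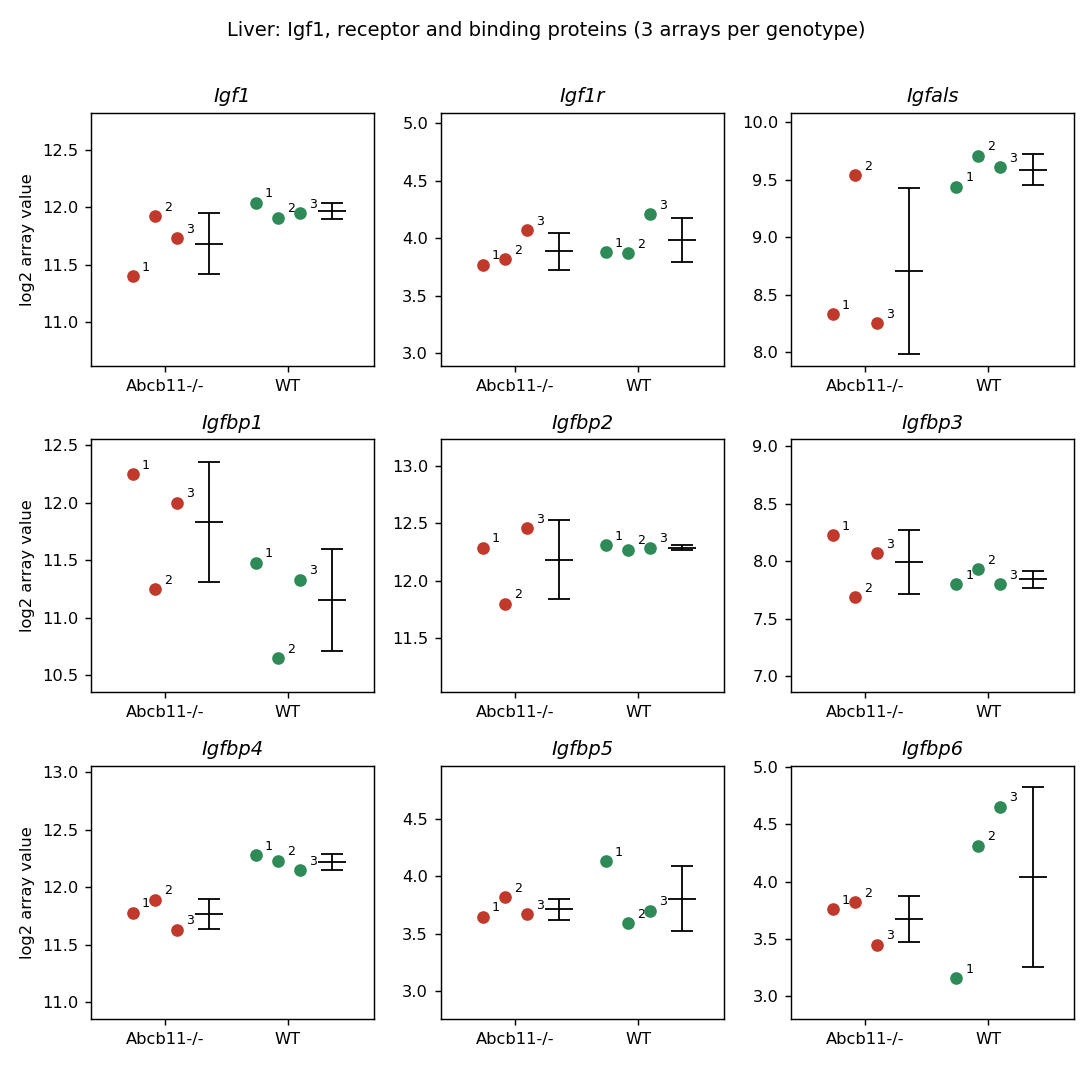
Log2 array values of the 9 genes in the liver, Abcb11-/- (red) left of WT (green), each point 1 array with its replicate number and each bar the mean and SD of 3 arrays; every panel spans the same range of log2 units. For Igfbp4 the red values (11.63 to 11.89) lie below the green values (12.15 to 12.28), and for Igfals only red replicate 2 (9.54) reaches the green values.

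The other probe sets of Igfbp4 gave larger falls. Igfbp4 had 6 probe sets, and in a fit over all 45037 probe sets all 6 were called lower, with adjusted p-values of 0.0032 to 0.040 from limma and no overlap between the genotypes. Their log2 fold changes ran from -0.45 to -1.15. The largest was on the dimmest of the 6, with 5.39, 6.08 and 5.73 in Abcb11-/- livers and 6.97, 6.76 and 6.93 in WT livers, a level 2.22-fold lower. The next had 8.90, 9.04 and 8.68 in Abcb11-/- livers and 9.84, 9.77 and 9.88 in WT livers. The smallest was on the brightest, the one that stands for the gene above. These probe sets measure transcripts of 1 gene in the same RNA and are not independent samples. By the manufacturer's naming, 3 of the 6 hold probes that can bind other transcripts too. The mean of the 6 gave -0.75 (adjusted p = 0.0061 from limma).

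**Figure D2:**
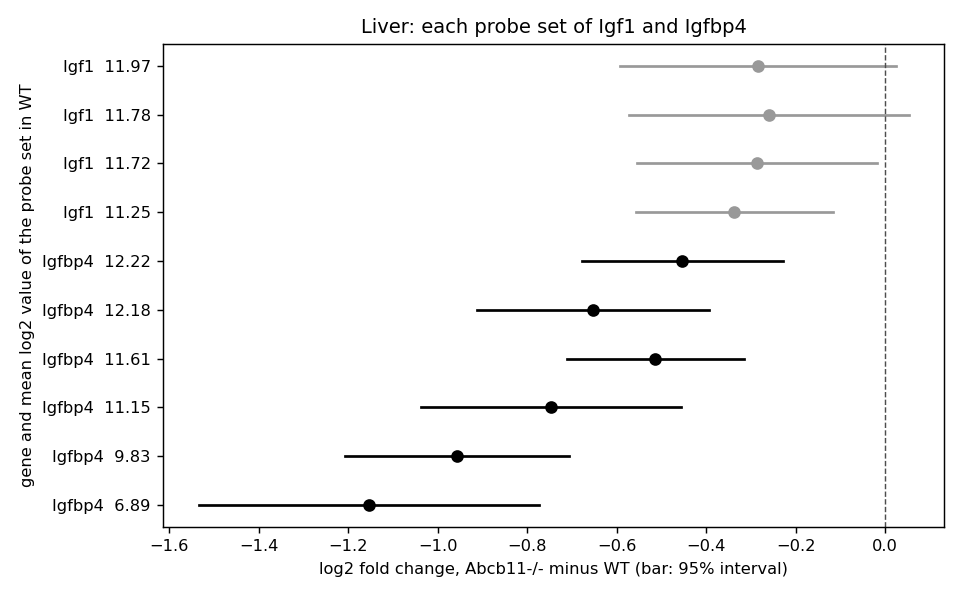
Log2 fold change (Abcb11-/- minus WT) of each probe set of Igf1 and Igfbp4 in the liver with its 95% interval, ordered within a gene by the mean log2 value in WT that stands beside the name; black points had an adjusted p under 0.05. The 6 probe sets of Igfbp4 run from -0.45 to -1.15, and the 4 of Igf1 from -0.26 to -0.34 with none called.

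The sequence before the start of 3 of these genes is shown because their liver values carry most of what follows: Igfbp4 passed the test, and Igfbp1 and Igfals had the largest fold changes in each direction. The sequences are from RefSeq on GRCm38.p6, plus strand, at chr11:99041124-99041243 for Igfbp4, chr11:7197587-7197726 for Igfbp1 and chr17:24878131-24878230 for Igfals. Capitals mark TATAAA (the TATA box) in Igfbp4, CAAAACA (a FOXO-type insulin response motif) in Igfbp1 and a match to TTCNNNGAA (the motif of STAT5) in Igfals.
Igfbp4: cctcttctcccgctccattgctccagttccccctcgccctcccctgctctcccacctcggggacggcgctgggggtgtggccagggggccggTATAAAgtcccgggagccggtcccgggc
Igfbp1: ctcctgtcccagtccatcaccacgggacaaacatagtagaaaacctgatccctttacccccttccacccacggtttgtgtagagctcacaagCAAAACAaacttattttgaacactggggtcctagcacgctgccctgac
Igfals: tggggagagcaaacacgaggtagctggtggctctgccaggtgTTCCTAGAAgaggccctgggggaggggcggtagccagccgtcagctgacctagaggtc
All 9 genes had a window from 250 bases before to 50 bases after a start in that table, 12 windows in all, and 4 motifs were searched there on both strands. TTCNNNGAA lay in 2 windows of Igfals and in no other of the 12, and in 8.3% of 32851 windows of all genes. CAAAACA lay in the window of Igfbp1 alone and in 6.28% of all windows. TATAAA lay in Igfbp4 and, on the reverse strand, in Igfbp6, and in 13.6% of all windows. GTTAAT, a part of the HNF1 motif, lay on the reverse strand of Igfbp1 and in 7.1% of all windows. No 2 of these matches overlapped. A match is a run of letters and no measurement of binding.

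Igf1, the ligand, had log2 values of 11.40, 11.92 and 11.73 in Abcb11-/- livers, against 12.04, 11.91 and 11.95 in WT livers. Replicates 1 and 3 of the Abcb11-/- livers lay below all WT livers, and replicate 2 lay among them. The log2 fold change was -0.28 (standard error 0.14, adjusted p = 0.29 from limma), which did not pass the test, with a 95% interval of -0.60 to 0.04. All 4 probe sets of Igf1 had a negative log2 fold change, from -0.26 to -0.34, and none was called (adjusted p = 0.10 to 0.40 from limma). On 1 of the 4 the genotypes did not overlap, with 10.78, 11.05 and 10.91 in Abcb11-/- livers and 11.23, 11.24 and 11.28 in WT livers.

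Igf1r, the receptor, was dim on all liver arrays, between 3.77 and 4.07 in Abcb11-/- livers and between 3.87 and 4.21 in WT livers. Adult hepatocytes are known to carry little of this receptor. Its log2 fold change was -0.10 (95% interval -0.40 to 0.20), and its 4 probe sets ranged from -0.10 to 0.12.

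Igfals, the liver-made subunit that locks IGF1 and IGFBP3 into the large circulating complex, varied most among the Abcb11-/- livers. It had 8.33, 9.54 and 8.25 in Abcb11-/- livers, against 9.44, 9.71 and 9.61 in WT livers. Replicates 1 and 3 were more than 1 log2 unit below every WT liver, while replicate 2 was within the WT values. The log2 fold change was -0.88 (standard error 0.32, 95% interval -1.62 to -0.14), and it did not pass the test over all genes (adjusted p = 0.16 from limma). Of the 6 fits with an array left out, only the 1 without Abcb11-/- replicate 2 passed (-1.30, adjusted p = 0.0017 from limma). The others did not, with adjusted p-values up to 0.36 from limma. No label sets the mouse of replicate 2 apart. The log2 of the summed signal of 8 macrophage markers was 12.46 in it, against 11.13 and 11.88 in Abcb11-/- replicates 1 and 3. In WT livers that signal was 11.40 to 11.96. For 8 endothelial markers it was 11.06 in replicate 2, against 10.38 and 10.85, and 10.79 to 11.15 in WT livers. Of either list 0 were called, and their part in these values was not tested.

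Igfbp1 encodes a liver-made binding protein that insulin represses and fasting raises. It had 12.25, 11.25 and 12 in Abcb11-/- livers, against 11.48, 10.65 and 11.33 in WT livers. The highest values were again those of Abcb11-/- replicates 1 and 3, and replicate 2 lay between the WT values. The log2 fold change was 0.68 (standard error 0.30, 95% interval -0.01 to 1.37), a level 1.60-fold higher that did not pass the test (adjusted p = 0.24 from limma). Igf1, Igfals and Igfbp1 thus shared an order in which Abcb11-/- replicate 2 was the nearest of its group to WT, as it was for Afp.

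Igfbp2, a binding protein of fetal tissues and adult liver, had 12.29, 11.80 and 12.46 in Abcb11-/- livers, against 12.31, 12.27 and 12.29 in WT livers. Only Abcb11-/- replicate 2 was low, and the log2 fold change was -0.11 (95% interval -0.49 to 0.27, adjusted p = 0.79 from limma). Igfbp3, the main carrier of IGF1 in the blood, which in rat liver is made outside the hepatocytes, had 8.23, 7.69 and 8.07 in Abcb11-/- livers and 7.80, 7.93 and 7.80 in WT livers. Its log2 fold change was 0.15 (95% interval -0.18 to 0.49, adjusted p = 0.62 from limma).

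The last 2 binding proteins were dim in the liver. Igfbp5, which can also join the acid-labile subunit, was between 3.65 and 3.82 in Abcb11-/- livers and between 3.59 and 4.13 in WT livers. Igfbp6, which prefers IGF2 over IGF1, had 3.76, 3.82 and 3.45 in Abcb11-/- livers, against 3.16, 4.31 and 4.65 in WT livers, and its log2 fold change of -0.36 did not pass the test (adjusted p = 0.63 from limma). The mesothelial genes Upk3b (5.42, 5.21 and 4.34 in Abcb11-/- livers, 3.68, 5.44 and 5.80 in WT livers) and Msln (4.35, 3.74 and 3.14 in Abcb11-/- livers, 3.55, 4.63 and 4.38 in WT livers) also had their lowest WT value in replicate 1, and 0 of 4 mesothelial markers were called. Their part in the Igfbp6 values was not tested.

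Around the ligand, 38 other genes of IGF and insulin action were listed, of which 33 were measured. In the liver 1 was higher (Stat5b) and 2 were lower (Ghr and Pik3r1), beside 4.33% and 2.91% of all genes. Their median log2 fold change was -0.09. At an unadjusted p under 0.05, 2 were higher and 7 lower, beside 21.6% of all genes in either direction. Without overlap between the genotypes, 2 were higher and 8 lower, beside 13.8% and 12.1% of all genes.

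The growth hormone branch, which drives hepatic Igf1 and Igfals, held calls in both directions among its 6 genes. Ghr, the growth hormone receptor, had 11.20, 11.46 and 11.40 in Abcb11-/- livers, against 11.88, 11.89 and 11.74 in WT livers. Every Abcb11-/- value was below every WT value (log2 fold change -0.48 with a standard error of 0.10, adjusted p = 0.031 from limma). Stat5b, the transcription factor that carries the signal to Igf1, had 7.78, 7.90 and 8.15 in Abcb11-/- livers, against 7.48, 7.38 and 7.29 in WT livers, and was higher (log2 fold change 0.56 with a standard error of 0.12, adjusted p = 0.031 from limma). Averaging its probe sets ended that call (0.33, adjusted p = 0.078 from limma). Jak2, the kinase bound to the receptor, and Socs2 and Cish, feedback inhibitors that the signal induces, did not pass the test, with log2 fold changes of -0.08, 0.09 and 0.50.

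Downstream of the receptors, Pik3r1, the regulatory subunit of PI3-kinase, had 7.02, 7.77 and 7.51 in Abcb11-/- livers, against 8.42, 8.33 and 8.32 in WT livers. All 3 Abcb11-/- values were lower (log2 fold change -0.92 with a standard error of 0.18, adjusted p = 0.023 from limma). It was the only call among 13 measured genes of the PI3-kinase, AKT, FOXO and mTOR branch. Of these 13, 10 had a negative log2 fold change (branch median -0.23, against 0.00 over all genes). The 13 were read on the same 6 arrays, and no test was made of them as a set. Insr, the insulin receptor, had 8.87, 8.77 and 9.05 in Abcb11-/- livers, against 9.41, 9.38 and 9.17 in WT livers, without overlap and short of the threshold (log2 fold change -0.42, adjusted p = 0.065 from limma). It passed with a trended prior (adjusted p = 0.042 from limma) and with dim genes left out (0.039). It did not pass with averaged probe sets, quantile normalization, median centring or a replicate block (adjusted p = 0.063 to 0.17 from limma). None of the 6 fits with an array left out passed either (adjusted p = 0.072 to 0.21 from limma). Igf2, the fetal ligand, was dim in both genotypes, at 3.46 to 3.71 in Abcb11-/- livers and 3.32 to 3.57 in WT livers. No call was made among 6 proteases and inhibitors that act on binding proteins or among 5 receptor adaptors. With 1 array left out, Ghr was called in 1 of 6 fits, Stat5b in 2 of 6 and Pik3r1 in 2 of 6, with adjusted p-values up to 0.13, 0.11 and 0.089 from limma. Ghr kept its call only without Abcb11-/- replicate 2, and Stat5b and Pik3r1 only without Abcb11-/- replicate 1 or 2.

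**Figure D3:**
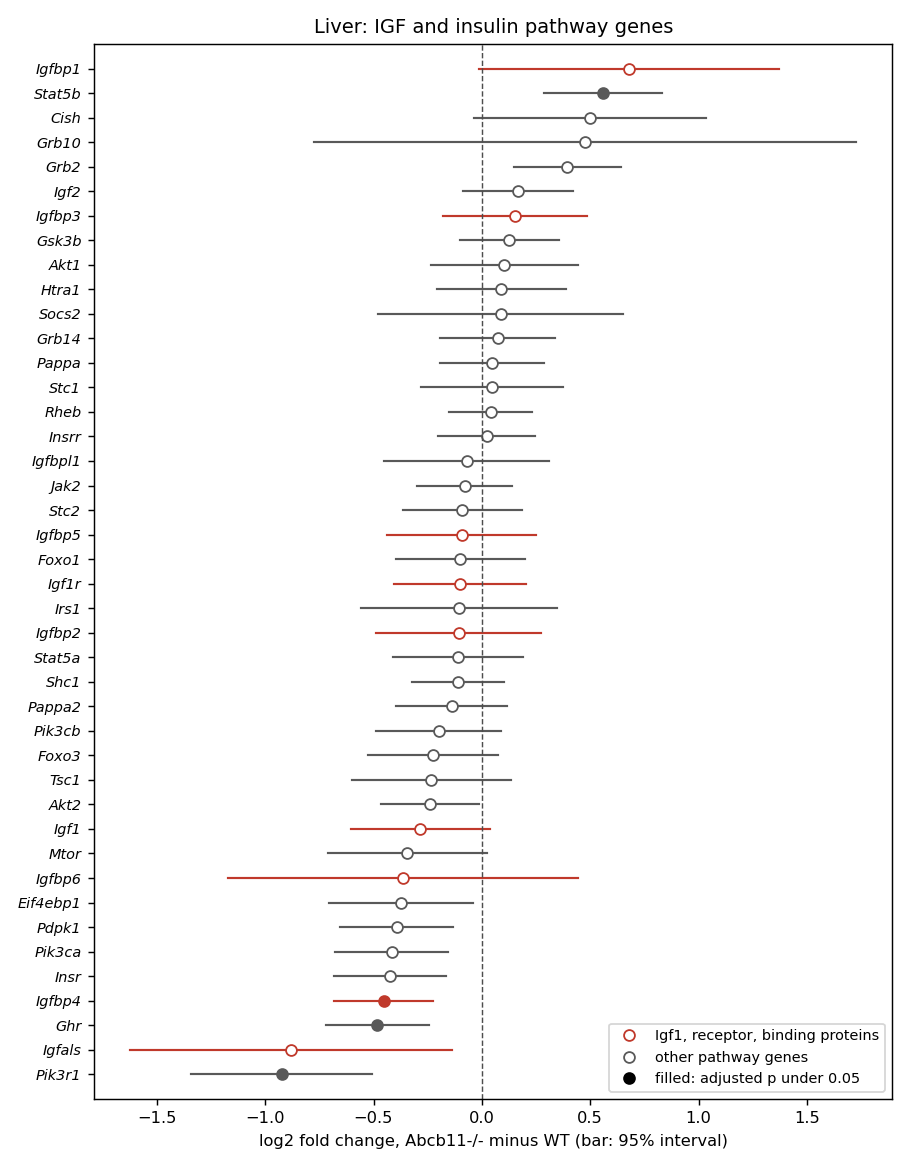
Log2 fold change (Abcb11-/- minus WT) in the liver with its 95% interval for the 9 genes described (red) and 33 other genes of IGF and insulin action (grey); filled points had an adjusted p under 0.05. The filled points are Stat5b (0.56) on the higher side and Igfbp4 (-0.45), Ghr (-0.48) and Pik3r1 (-0.92) on the lower side.

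In the lung, the values of Igfbp2 and Igfbp3 lay further apart between stages than between mothers. No difference at a stage has a replicate check. At E17.5 the Abcb11-/- mother gave a level 1.5-fold or more above that of the WT mother for 3 of the 9 genes (Igfbp1, Igfbp3 and Igfbp6) and 1.5-fold or more below it for 1 (Igf1), beside 3.47% and 3.55% of all genes. Centring each array on its median left 2 of the 3, with Igfbp3 just under the limit (log2 difference 0.58). At E18.5 there were 0 either way (2.13% and 1.26% of all genes) and at PN0 0 either way (4.16% and 2.88%). At PN0 Igfbp3 lay just under the limit, 1.49-fold lower with an Abcb11-/- mother. A limma model with stage and mother called none of the 9 genes for the mother over the stages, of 0% of all genes in either direction. None had an unadjusted p under 0.05 (5.07% of all genes). It had 2 residual degrees of freedom.

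Transcripts of other tissues were found on the Abcb11-/- mother's array at E17.5. There, 9 of 10 hepatocyte markers exceeded the WT mother's array by 1.5-fold or more (median log2 difference 4.13), and so were 7 of 8 skeletal muscle markers (4.14). The log2 of the summed signal of the hepatocyte markers was 14.41 on this array and 10.90 to 11.52 on the other 5. That of the skeletal muscle markers was 11.66 against 7.23 to 8.16. Heart muscle markers were lower at that stage for 5 of 6 (median -1.17), and the mesothelial markers were higher for 2 of 4 (0.70).

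Igfbp1 was the gene furthest apart. With an Abcb11-/- mother its log2 values were 9.05, 3.95 and 3.47 at E17.5, E18.5 and PN0, and with a WT mother they were 4.42, 3.78 and 3.64. Only the first of these arrays stood out (log2 difference 4.63 at E17.5). The WT mother's value there is dim and has no detection call, so no fold is given. On the same array the hepatocyte genes Alb (13.01 with an Abcb11-/- mother, 9.05 with a WT mother), Afp (12.28 and 8.76 in the same order) and Apoa1 (10.68 and 5.33) were higher too, and their part in the Igfbp1 value was not tested. Igfals, another gene of the liver, was dim on all 6 arrays (3.02 to 3.44) and did not stand out on that one (3.44 with an Abcb11-/- mother, 3.35 with a WT mother). In the rat, Igfals is known to be switched on in the liver mainly after birth, and no fetal mouse liver was measured here.

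**Figure D4:**
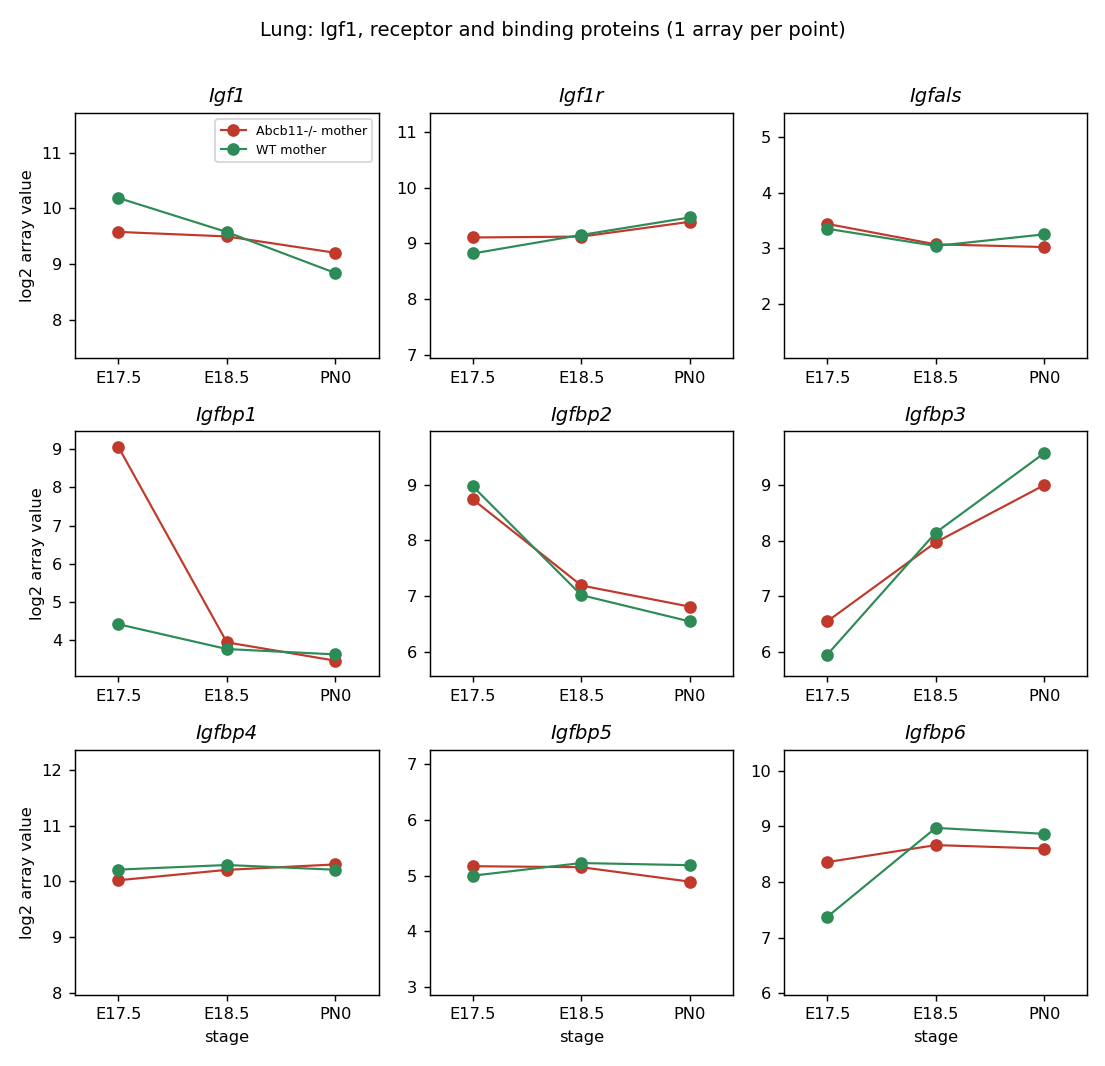
Log2 array values of the 9 genes at the 3 lung stages, each point 1 array, with an Abcb11-/- mother in red and a WT mother in green; the panel of Igfbp1 spans a wider range than the others. Igfbp2 is lower and Igfbp3 higher at each later stage with either mother, and Igfbp1 stands out at E17.5 with an Abcb11-/- mother (9.05).

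The kept probe set of Igf1 was lower at each later stage with either mother, over a narrower range with an Abcb11-/- mother. With an Abcb11-/- mother it had 9.57, 9.49 and 9.20 at E17.5, E18.5 and PN0, and with a WT mother 10.18, 9.57 and 8.84. The range was narrower with an Abcb11-/- mother on all 4 probe sets of Igf1, but the order of the stages held on 2 of the 4 with an Abcb11-/- mother and on all 4 with a WT mother. The log2 difference by mother was -0.61 at E17.5, -0.08 at E18.5 and 0.36 at PN0. The E17.5 difference was negative on all 4 probe sets of Igf1 (-0.30 to -0.95) and the PN0 difference positive on all 4 (0.36 to 0.98). Averaging the 4 probe sets gave -0.61 at E17.5 and 0.59 at PN0, past 1.5-fold at both stages. At PN0 the mesenchymal markers Lum (7.84 with an Abcb11-/- mother, 5.49 with a WT mother) and Dcn (8.75 and 7.37 in the same order) were higher too, 2 of 11 stellate cell and fibroblast markers (median 0.16), and their part in the Igf1 value was not tested. Igf1r had 9.10, 9.12 and 9.39 with an Abcb11-/- mother and 8.82, 9.15 and 9.46 with a WT mother, and none of these pairs was 1.5-fold apart.

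Igfbp2 had its highest values at E17.5. With an Abcb11-/- mother it had 8.73, 7.19 and 6.81 at E17.5, E18.5 and PN0, and with a WT mother 8.97, 7.01 and 6.54. At no stage were the mothers 1.5-fold apart. From E17.5 to E18.5 the change was -1.75 in log2 (standard error 0.17), short of the threshold in the limma model (adjusted p = 0.063), with the arrays of the 2 mothers standing as replicates of a stage. It passed without the Abcb11-/- mother's E17.5 array (-1.98, adjusted p = 0.014 from limma), without that of the WT mother (-1.52, adjusted p = 0.030), with dim genes left out (adjusted p = 0.023) and with a trended prior (adjusted p = 0.0035). With each of the 6 arrays left out, 2 fits passed and 4 did not, with adjusted p-values up to 0.46 from limma, the highest without the WT mother's E18.5 array. Without the WT mother's E17.5 array, that stage kept only the array on which hepatocyte and skeletal muscle transcripts were found. Their part in the Igfbp2 values was not tested. From E18.5 to PN0 the change of Igfbp2 was -0.43 (adjusted p = 0.40 from limma).

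Igfbp3 ran the other way, with 6.55, 7.97 and 9.0 with an Abcb11-/- mother and 5.95, 8.14 and 9.57 with a WT mother. From E17.5 to PN0 that is a 5.44-fold higher level with an Abcb11-/- mother and a 12.3-fold higher one with a WT mother. The log2 difference by mother was 0.60 at E17.5, -0.17 at E18.5 and -0.57 at PN0. The change from E17.5 to E18.5 was 1.80 (standard error 0.28, adjusted p = 0.11 from limma) and that from E18.5 to PN0 1.23 (0.28, adjusted p = 0.24). The first passed with a trended prior (adjusted p = 0.031 from limma) and without the Abcb11-/- mother's E17.5 array (2.29, adjusted p = 0.014). That was 1 of 6 fits with an array left out, and the others gave adjusted p-values of 0.082 to 0.64 from limma, with a change of 1.32 (adjusted p = 0.082) without the WT mother's E17.5 array. Over all genes, 0.0526% were called higher and 0.00585% lower from E17.5 to E18.5 (12.8% at an unadjusted p under 0.05), and none from E18.5 to PN0 (12.3%). None of the 9 was called for either step, and 2 were higher and 2 lower at an unadjusted p under 0.05 for the first step and 1 higher and 1 lower for the second.

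Igfbp6 had 8.36, 8.66 and 8.60 with an Abcb11-/- mother and 7.38, 8.97 and 8.87 with a WT mother. Its E17.5 value with a WT mother was the lowest of the 6, and the mothers were 1.98-fold apart there (log2 difference 0.98). On those 2 arrays the mesothelial genes Msln (8.24 with an Abcb11-/- mother, 7.43 with a WT mother) and Lrrn4 (6.53 and 4.98 in the same order) differed the same way. At PN0 both were higher with an Abcb11-/- mother (Msln 8.78 and 8.72, Lrrn4 5.79 and 4.40), where Igfbp6 was lower. At E18.5 Msln was lower (8.74 and 8.96), as Igfbp6 was, and Lrrn4 higher (6.05 and 5.92). Their part in the Igfbp6 values was not tested. From E17.5 to E18.5 the change of Igfbp6 was 0.95 (adjusted p = 0.33 from limma). It was 1.59 (adjusted p = 0.021) without the Abcb11-/- mother's E17.5 array and 0.32 (adjusted p = 0.72) without that of the WT mother, and without the WT mother's E18.5 array it was 0.62 (adjusted p = 0.86). Of the 6 fits with an array left out 1 passed. Igfbp4 stayed between 10.02 and 10.30 with an Abcb11-/- mother and between 10.21 and 10.29 with a WT mother. At E17.5 the log2 difference by mother was negative on all 6 of its probe sets (-0.17 to -0.34), and none was 1.5-fold apart. Igfbp5 was between 4.89 and 5.17 with an Abcb11-/- mother and between 5.0 and 5.23 with a WT mother.

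With the 33 other genes of the pathway, the Abcb11-/- mother's array was 1.5-fold or more below the other for 1 gene at E17.5 (Htra1) and above it for 0. There was no such gene at E18.5, and there were 4 above and 2 below at PN0, beside 4.16% and 2.88% of all genes at PN0 and 3.47% and 3.55% at E17.5. By that limit, heart muscle markers at PN0 were higher in 3 of 6 (median log2 difference 0.70), hepatocyte markers were higher in 3 of 10 (0.40), and skeletal muscle markers were lower in 3 of 8 and higher in 1 (-0.26), and their part in these values was not tested. The 4 at PN0 were Stat5a, a relative of Stat5b (log2 difference 0.87), Htra1, a protease that can cleave binding proteins (0.81), Tsc1, a brake on mTOR (0.67), and Irs1, an adaptor of the IGF1 and insulin receptors (0.58). Irs1 only just reached the limit (1.500-fold). The 2 lower genes were proteases of binding proteins. Pappa2, which cleaves IGFBP3 and IGFBP5, had 3.49 with an Abcb11-/- mother and 4.63 with a WT mother, and Pappa, which cleaves IGFBP4, had 4.63 and 5.45 in the same order. Both were dim at E17.5 and E18.5 (3.60 to 4.66 over both genes and mothers). At PN0 only Pappa with a WT mother (5.45) lay above that range, so the PN0 differences rest on dim values too. Igf2 had 11.07, 10.30 and 10.07 with an Abcb11-/- mother and 11.09, 10.33 and 9.82 with a WT mother, lower at each later stage with either mother.

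The genes whose centred values followed those of Igf1 most closely were taken by the root mean square of the log2 differences over the 6 arrays of a tissue. In the liver they were Papss2, which makes the sulfate donor of sulfation reactions (0.029), the proton pump subunit Atp6v0a2 (0.032), Urod, an enzyme of heme synthesis (0.038), and Nit2, an omega-amidase (0.047), of 6374 genes compared. In the lung they were Selenom (0.066), the sodium pump regulator Fxyd3 (0.087), Rbm41 (0.089) and Thyn1 (0.095), of 7221 genes compared.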

How the data were processed

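Total RNA was hybridised to Affymetrix HT MG430 PM arrays, and the authors summarized the scans by robust multiarray averaging (the submitters' notes name RMA and Partek 6.5). The deposited values are log2 signals, with no detection call, and their number of decimals and their medians differ between the tissues. Of 45037 probe sets, 28898 carried 1 gene symbol, and the brightest stood for each of 17097 genes. A genome build is not given in the sources used here. The genes and lists were chosen with earlier results of these data known. The liver was fitted by genotype, and the lung by stage and mother, in limma 3.58.1 (R 4.3.3, lmFit and eBayes, Benjamini-Hochberg over all genes, adjusted p under 0.05). At a lung stage the log2 difference is that of 1 array from another, described at 1.5-fold. Scripts were tested on simulated data. Named genes were all members, called pathway genes with Ghr, Igf2 and Insr, up to 6 pathway genes 1.5-fold apart in the lung, and 4 genes per tissue most like Igf1. Alternatives were averaged or single probe sets, a mean log2 value of at least 6, quantile normalization, median centring, a trended and robust prior, a replicate block, arrays left out, a 2-fold limit in the lung, and the methods' Student test. Each liver array is labelled as 1 mouse, and p-values measure the spread between these arrays. The number of arrays limits the precision, and 3 against 3 arrays cannot give an exact two-sided permutation p under 0.1.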

Additional observations from a re-analysis of the deposited data

Results flagged for a closer look

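Listed here are log2 differences by mother in the lung (Abcb11-/- mother minus WT mother) that pointed in opposite directions at 2 stages and were at least 1.2-fold at both. The 1.2-fold limit was chosen after the values were seen, no test was made of a difference between stages, and each value comes from 1 array per mother. Every E17.5 difference listed rests on the Abcb11-/- mother's array on which hepatocyte and skeletal muscle transcripts were found. Their part in these values was not tested. Igf1 had -0.61 at E17.5 and 0.36 at PN0. Igfbp3 had 0.60 at E17.5 and -0.57 at PN0. Igfbp6 had 0.98 at E17.5, -0.31 at E18.5 and -0.26 at PN0. Htra1, the protease, had -0.77 at E17.5 and 0.81 at PN0. Of the receptor adaptors, Grb10 had -0.34 at E17.5 and 0.28 at PN0, and Grb2 had 0.41 at E17.5 and -0.32 at PN0.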

How the results depend on the processing

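Igfbp4 in the liver stayed called with averaged probe sets, without dim genes, after quantile normalization or median centring, with a trended prior and on each of its other 5 probe sets. The sign turned for Igf1r on 1 other probe set (0.12), and, with single arrays left out, for Igf1r (-0.19 to 0.012), Igfbp2 (-0.25 to 0.085) and Igfbp5 (-0.20 to 0.068) in the liver. Leaving out each liver array gave 0 to 2 members lower, 0 to 2 pathway genes higher and 0 to 2 lower. Over all genes those fits called 315 to 888 higher and 177 to 621 lower. Averaged probe sets gave 0 pathway genes higher, beside 668 of all 17097 genes. With dim genes left out, 2 were higher and 5 lower, beside 601 and 553 of the 6375 genes tested. The methods' test called 2 pathway genes higher and 6 lower unadjusted, beside 1685 and 1444 of all 17097 genes. After adjustment it called 0 higher, 0 lower and 0 members lower (26 genes higher and 23 lower in all). In the lung, averaged probe sets gave 1 member at least 1.5-fold higher at PN0 (Igf1), median centring left 2 at least 1.5-fold higher at E17.5 (without Igfbp3), and a 2-fold limit left 1 higher and 0 lower at E17.5. From E17.5 to E18.5, 1 member was lower without dim genes, 1 higher and 1 lower with a trended prior, and 0 to 2 higher and 0 to 2 lower with each array left out (Igfbp1 and Igfbp2 without the WT mother's E17.5 array). Those fits had 1 residual degree of freedom, and the lone array of a stage is assumed to vary like the others. Without the WT mother's E17.5 array, the lone array was the one on which hepatocyte and skeletal muscle transcripts were found.

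Replicates of the 2 genotypes share numbers in the liver labels, but same-numbered arrays did not deviate together (correlations of -0.17, -0.15 and -0.24 over 6375 genes), and nothing says that they are pairs. With the number as a replicate block, 1 member was higher (Igfbp1, adjusted p = 0.031 from limma) and 0 lower (Igfbp4, 0.078), with 0 pathway genes higher and 0 lower, and 429 genes higher and 242 lower in all, against 740 and 498 without it.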

Other observations

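Grb10, an imprinted adaptor that restrains the IGF1 and insulin receptors, was lower at each later lung stage with either mother, as Igf2 was. It had 10.91, 10.60 and 10.29 at E17.5, E18.5 and PN0 with an Abcb11-/- mother, and 11.25, 10.53 and 10.003 with a WT mother. Cish, a feedback inhibitor of growth hormone signalling, was higher at each later stage, with 7.96, 8.42 and 8.98 with an Abcb11-/- mother and 7.91, 8.44 and 8.63 with a WT mother. Both genes were chosen after their values were seen. In the liver, Cish had 8.63, 7.61 and 8.22 in Abcb11-/- mice, against 7.67, 7.59 and 7.70 in WT mice, so replicate 2 again lay within the WT values (log2 fold change 0.50, adjusted p = 0.27 from limma).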
